A study of Homo sapiens with 2 samples.

Results

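Solute carriers are membrane proteins that move ions, nutrients, metals, vitamins, amines and metabolites across the membranes of cells and organelles, by facilitated diffusion or by coupling to the gradient of another solute. Their genes are named SLC, a family number, A and a member number. Members of a family are related in sequence, and most families share a kind of substrate. Mast cells load histamine and serotonin into secretory granules with a vesicular amine transporter of this superfamily, and zinc carriers serve the same granules.

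The 151 genes described here were all protein-coding genes with a symbol of that form and a value in both libraries, apart from 1 gene. They were 151 of 333 annotated SLC genes (45.3%) and 151 of the 14467 genes with a value. The RNA came from extracellular vesicles released by LAD2, an established human mast cell line, grown in SP34 medium with stem cell factor at 37 °C in 5% CO2 and collected after 4 days. The 2 libraries, replicates 1 and 2, formed 1 group with no treatment and no control, so genes were compared with genes within the libraries and replicate 1 with replicate 2. No label says whether the replicates were separate cultures, and LAD2 is a single line. In such bulk RNA, fewer vesicles of a kind and less RNA per vesicle cannot be told apart.

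The deposited log2 values were read on 2 scales. The linear value is 2 to the power of the deposited value, and a gene was called detected where it was at least 10 in both libraries. The level per kb is the mean log2 value of the 2 libraries minus log2 of the exonic length in kb, and genes are compared with each other on that scale alone. Errors are the SD of the 2 libraries (n = 2). No depth was stated for these libraries, but the low values fell on even steps, and taking the most common step as 2 reads puts the libraries at about 2100000 counted reads for replicate 1 and 1600000 for replicate 2. On those steps, 76 members of 151 (50.3%) had the values of genes read in 1 library alone, 59 in replicate 1 and 17 in replicate 2, against 50.7% of all genes. Such genes carry nearly equal deposited values in both libraries, so their SD is no measure of replicate error. Among detected members 8 of 74 were of this kind.

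Many SLC genes share exonic bases with a gene on the other DNA strand. Whether reads were counted by strand is not stated in the labels or notes, so which strand's RNA a value holds is uncertain for these genes. The sequences below are coding stretches of 4 such members, chosen because the member and its opposite-strand partner had very different values. They were read from GENCODE 29 transcripts on GRCh38 (hg38), 5′ to 3′ on the member's strand. Capitals mark the bases that also lie, as the reverse complement, in an exon of the partner.
SLC25A5: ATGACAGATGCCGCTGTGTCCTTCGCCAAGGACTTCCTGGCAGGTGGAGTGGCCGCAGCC
SLC4A2: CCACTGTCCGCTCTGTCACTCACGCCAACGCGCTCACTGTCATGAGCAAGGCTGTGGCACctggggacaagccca
SLC30A5: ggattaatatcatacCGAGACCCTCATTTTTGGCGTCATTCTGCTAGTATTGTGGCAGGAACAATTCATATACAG
SLC25A18: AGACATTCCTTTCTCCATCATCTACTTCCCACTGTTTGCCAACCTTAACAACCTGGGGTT

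The SLC25A5 stretch, chrX:119468516-119468575 on the plus strand, opens with the start codon of an ADP/ATP carrier of the inner mitochondrial membrane, and its partner is SLC25A5-AS1. That of SLC4A2, an anion exchanger, is chr7:151075377-151075451 on the plus strand, and the partner is the antisense gene ENSG00000244151. For SLC30A5, a zinc carrier of the early secretory pathway, it is chr5:69128019-69128093 on the plus strand, opposite ENSG00000248664. SLC25A18, a mitochondrial glutamate carrier, holds the stretch chr22:17587925-17587984 on the plus strand, opposite ENSG00000236754.

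A value was present for 45.3% of the annotated SLC genes and for 42.3% of all annotated protein-coding genes. Detected members numbered 74 of 151 (49.01%), beside 45.5% of all genes with a value and 43.6% of the protein-coding ones. Not counting genes on the steps of 1 library as detected, 66 of the 151 members stayed detected (43.7%), beside 39.8% of all 14467 genes with a value. The median level per kb was 0.92 for members and 0.68 for all protein-coding genes with a value. Members held 0.610% of the summed linear value in replicate 1 and 0.553% in replicate 2, a mean of 0.581% ± 0.0401 (SD, n = 2), while they were 1.04% of the genes. The 10 members of highest deposited value held 62.5% of the members' linear sum in replicate 1 and 62.0% in replicate 2. The SLC genes as a whole therefore lay near the protein-coding background in presence and level, and a few genes carried most of their signal.

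**Figure D1:**
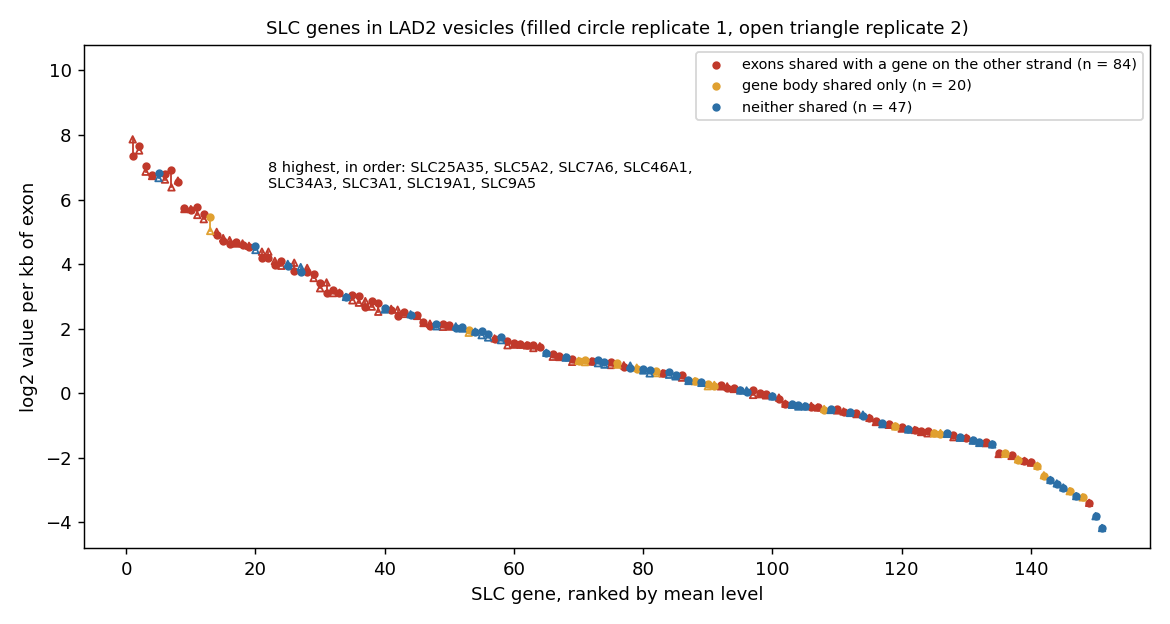
Level per kb (log2 value per kb of exon, vertical axis) of the 151 SLC genes in rank order of their mean (horizontal axis), with a filled circle for replicate 1 and an open triangle for replicate 2, coloured by overlap with a gene on the other strand. Of the 10 highest genes, 9 share exonic bases with such a gene, beside 84 of all 151, and the levels run from 7.60 down to -4.18.

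The highest SLC levels were not those of a mast cell transporter. SLC25A35 (chr17:8287763-8295343), a mitochondrial carrier gene, had a deposited log2 value of 9.30 in replicate 1, 9.83 in replicate 2, and a level per kb of 7.60 ± 0.37. SLC5A2 (chr16:31483002-31490860), the sodium-glucose cotransporter of the kidney proximal tubule, had log2 values of 9.81 and 9.68, at 7.59 ± 0.09 per kb. These neighbours in rank differed by less than the SD of SLC25A35. SLC7A6, a light chain of heteromeric amino acid transporters, followed with log2 values of 9.96 and 9.79 and 6.95 ± 0.12 per kb. The next 5 lay close together, between 6.57 and 6.75 per kb. They were SLC46A1, the proton-coupled folate transporter (log2 values 9.74 and 9.70), SLC34A3, a kidney sodium-phosphate cotransporter (8.02 and 7.87), and SLC3A1, the heavy chain of the kidney cystine transporter (9.50 and 9.33). The remaining pair were SLC19A1, the reduced folate carrier (10.23 and 9.70), and SLC9A5, a sodium-proton exchanger (8.98 and 9.03). Of all 8, SLC34A3 alone shared no exonic base with a gene on the other strand, which held for 67 of all 151 members.

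Amine transporters included the best-known mast cell member. SLC18A2, the vesicular monoamine transporter that fills granules with histamine and serotonin, had log2 values of 7.78 and 7.76 and a level per kb of 5.72 ± 0.01, rank 9 of 151. It ends tail to tail with PDZD8, an exon of which covers 2157 of its exonic bases (52.04% of its exonic length). PDZD8 was higher, with log2 values of 12.90 and 11.87 and 9.08 ± 0.73 per kb. SLC6A4, the serotonin uptake transporter of the cell surface, was just detected, with log2 values of 3.76 and 3.69. SLC6A2, the noradrenaline transporter, had log2 values of 3.47 and 3.38, on steps of reads in replicate 1 alone. In the class of amine and neurotransmitter carriers, 11 of 32 annotated genes had a value, 5 were detected and the median level per kb was 0.06.

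Of 14 transporters listed for mast cells, 7 had a value and 3 were detected, namely SLC18A2, SLC6A4 and SLC45A3, a proton-coupled sugar transporter at log2 4.54 and 4.48. Undetected with a value were SLC30A2, a zinc carrier of secretory vesicles (2.23 and 2.19), SLC11A1, a phagosomal metal carrier (1.77 and 1.74), SLC24A3, a sodium-calcium exchanger (1.35 and 1.33), and SLC29A2, an equilibrative nucleoside transporter (0.68 in both). All of these log2 values but those of SLC29A2 lay on steps of reads in replicate 1 alone. No value was present for SLC22A3, SLC22A4, SLC29A1, SLC11A2, SLC7A11, SLC2A3 or SLC2A6. Of 12 mast cell marker genes, 10 had a value and 2 were detected, GATA2 (log2 8.89 and 9.16) and SLC18A2. KIT, MS4A2, TPSAB1, TPSB2, CPA3, CMA1, HDC and HPGDS were below detection, and the defining receptor genes FCER1A and FCER1G had no value. The summed linear value of the mast cell markers was 730 in replicate 1 and 823 in replicate 2, mostly from the 2 detected genes. Of 10 markers of blood, liver and epithelial cells, 4 had a value and 3 were detected, led by HBA2 (log2 8.63 and 9.34), with a summed linear value of 456 and 708, and their part in the SLC values was not tested. Of 6 vesicle markers, 5 had a value and 3 were detected, CD63 (log2 6.26 and 6.34), PDCD6IP and CD81. TSG101 and FLOT1 were below detection, and CD9 had no value.

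Some transporters known from other tissues also had a value. Kidney carriers had 2 of 6 with a value, both detected: SLC5A2, above, and SLC22A8, an organic anion transporter at log2 4.82 and 4.74. Liver carriers had 2 of 5, with SLC10A1, the bile acid uptake transporter, detected at log2 5.58 and 5.47. SLC38A3, a glutamine transporter, was below detection at 2.35 and 2.31, on steps of reads in replicate 1 alone. Intestinal carriers had 1 of 5, SLC9A3, a brush-border sodium-proton exchanger at log2 5.30 and 5.02. Neuronal carriers had 3 of 6 and none was detected at a linear value of 10, and erythroid carriers had 2 of 5, of which SLC25A38, a mitochondrial glycine carrier, was detected. Between 20% and 50% of each tissue list had a value, and 50% of the mast cell transporter list. The share over all annotated protein-coding genes was 42.3%. The lists are short, and their counts do not set 1 tissue apart from another.

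Amino acid transporters had a value for 23 of 45 annotated genes, 10 of them detected, with a median level per kb of 0.34. Heteromeric transporters pair a heavy chain of family 3 with a light chain of family 7, and they were unevenly represented. SLC3A1 was among the highest members, while SLC3A2, the heavy chain of most other cells, had no value. The light chain SLC7A7 was detected at log2 4.42 and 4.36, and SLC7A5, the large neutral amino acid light chain, was not, at 1.67 and 1.68. SLC7A11, the cystine-glutamate light chain, and SLC1A5, a glutamine transporter, had no value. SLC1A3, a glial glutamate transporter, had log2 values of 8.09 and 7.68 and 5.24 ± 0.30 per kb, the highest level of a member that shares only its gene body with an opposite-strand gene.

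Sugar transporters had a value for 10 of 31 annotated genes, with 5 detected and a median level per kb of 1.58. All classes were set by whole family, so this one counts SLC5A6, a vitamin carrier, among the detected. The facilitative hexose family 2 had a value for 2 of 14 genes (14.3%), beside 45.3% of all annotated SLC genes, but 14 genes are few. SLC2A12 had log2 values of 5.28 and 5.27. SLC2A11 had -0.23 and -0.24, on steps of reads in replicate 1 alone. SLC2A1, the glucose transporter of most cultured cells, had no value. Sodium-coupled family 5 held SLC5A2 and SLC5A10 (log2 6.89 and 7.08), a mannose and fructose carrier. SLC5A6, its multivitamin transporter, had log2 values of 6.28 and 6.53.

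Ion and pH carriers had a value for 23 of 41 genes, 13 of them detected, with a median level per kb of 1.11. SLC24A5, the potassium-dependent sodium-calcium exchanger of pigment cells, had log2 values of 8.03 and 7.78. SLC4A5, a sodium bicarbonate cotransporter, had 7.62 and 7.75. SLC4A2, the anion exchanger of many cell types, had 3.89 and 3.80 and was lower per kb than these, at 0.92 ± 0.07 against 5.65 and 4.68. Carboxylate and sulfate carriers had a value for 11 of 30 genes and 4 were detected. They were led per kb by SLC26A1, a sulfate transporter (log2 7.67 and 7.496), and SLC13A4, another (6.43 and 6.26). SLC16A3, the lactate exporter of glycolytic cells, had log2 values of 6.28 and 6.60, and SLC16A1, its widespread relative, had no value.

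Metal carriers were the class with a value for 19 of 31 annotated genes (61.3%), with 8 detected and a median level per kb of 0.82. Zinc importers of family 39 and zinc exporters of family 30 were both present. SLC39A9 had log2 values of 8.50 and 8.54 and SLC39A7, which releases zinc from the endoplasmic reticulum, had 4.35 and 4.19. SLC30A8, the zinc carrier of pancreatic insulin granules, had log2 values of 6.58 and 6.66, 3.97 ± 0.05 per kb, with no gene overlapping it on the other strand. SLC30A5 had 3.74 and 3.66, and SLC30A1, the zinc exporter of the cell surface, had 3.70 and 3.71. SLC31A2, a copper carrier, had log2 values of 5.44 and 5.27. Its surface relative SLC31A1 had 1.35 and 1.33, on steps of reads in replicate 1 alone.

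Mitochondrial carriers, family 25, were the largest class, with a value for 25 of 48 annotated genes, 14 of them detected and a median level per kb of 1.44. They held 10.25% of the members' linear sum in replicate 1 and 13.5% in replicate 2. SLC25A26, the S-adenosylmethionine carrier, had log2 values of 7.09 and 7.12, and SLC25A22, a glutamate carrier, had 6.18 and 6.32. The ADP/ATP carriers, abundant proteins of most cells, were uneven. SLC25A6 had log2 values of 4.88 and 5.02 and ranked 27 of 151 per kb at 3.84, SLC25A5 had 2.01 and 2.04 and a level of 1.44 per kb, and SLC25A4 had no value. SLC25A3, the phosphate carrier, had 0.23 in both, on steps of reads in replicate 2 alone. SLC25A5 has near-identical pseudogene copies and SLC25A6 lies in the region that chromosomes X and Y share, so how reads from these copies were counted makes both values uncertain.

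Vitamin and cofactor carriers had a value for 7 of 14 genes, 4 detected, at a median of 2.10 per kb. The 2 folate transporters SLC46A1 and SLC19A1 led the class. Of the lipid class, 3 of 11 genes had a value and all 3 were detected, all in family 27 of fatty acid transport proteins. SLC27A5, the liver bile acyl-CoA synthetase, had log2 values of 7.91 and 8.004. No member of the choline-like family 44 had a value, and neither did any gene of families 23, 32 or 33. Nucleoside carriers had a value for 5 of 7 genes, of which SLC29A4 was detected at log2 3.35 and 3.41. Nucleotide sugar and sugar phosphate carriers had a value for 5 of 10 genes. The 3 detected were all in the nucleotide sugar family 35, led by SLC35A5 (6.46 and 6.67). Organic ion and drug carriers had a value for 8 of 31 genes, with 4 detected and SLC10A1 the highest per kb.

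**Figure D2:**
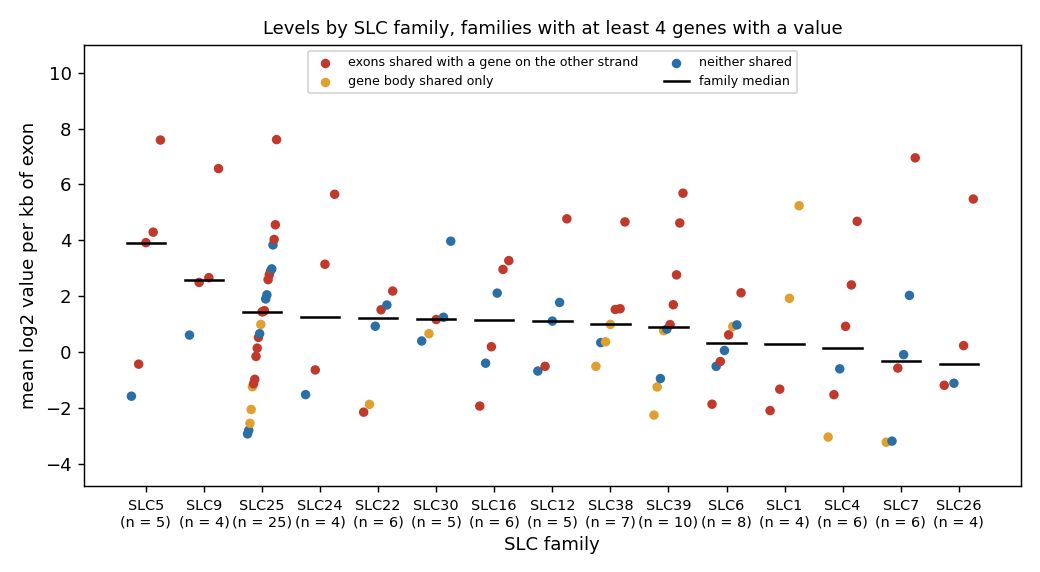
Level per kb of each SLC gene with a value (log2 value per kb of exon) by SLC family, for families with at least 4 such genes, coloured by overlap with a gene on the other strand, with a bar at the family median. Family 25 holds the most genes, 25, and the highest single level, 7.60.

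Among annotated SLC genes, 129 share exonic bases with a gene on the other strand and 84 of these had a value (65.1%), beside 61.5% of protein-coding genes with such an overlap. Of the 204 without it, 67 had a value (32.8%), beside 32.5% of protein-coding genes. Detected were 53 of the 84 members with an exonic overlap (63.1%) and 21 of the 67 without (31.3%). Over protein-coding genes with a value, the detected shares were 58.98% and 28.7%. The median level per kb was 1.62 with and 0.25 without an exonic overlap, a difference of 1.37, and 1.601 over all protein-coding genes. The SLC genes thus followed a split of the same direction as all protein-coding genes. Splitting the 67, the 20 that share only gene body had a median of -0.13 and the 47 with neither had 0.40. Values on steps of reads in 1 library made up 32 of 84 members with an exonic overlap (38.1%), 12 of 20 with gene body only and 32 of 47 with neither (68.1%).

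The level also differed with the amount of overlap. Members sharing 500 bases or more had a median level per kb of 3.47 (36 members, 29 detected), those sharing 100 or more but under 500 bases 1.29 (36 members, 18 detected) and those sharing under 100 bases 1.00 (12 members, 6 detected). The medians over all protein-coding genes in the same ranges were 2.66, 1.35 and 0.94. Spearman's rho between shared bases and level per kb was 0.45 over the 84 members, against 0.24 over protein-coding genes with an overlap. These points share both libraries, and rho between shared bases and exonic length was 0.02. Exonic overlaps were present in 25 of the 30 highest members and in 11 of the 30 lowest. The share was 55.6% over all members and 49.1% over all protein-coding genes with a value, whose own highest and lowest genes were not counted.

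Levels differed with the arrangement of the pair as well, and mostly as they did over all protein-coding genes with an overlap. The 39 members that meet their partner tail to tail had a median level per kb of 2.41 and 28 were detected, beside a median of 2.72 and 70.3% detected over protein-coding genes. The 25 that meet head to head had 1.52 and 15 detected, beside 1.37 and 53.5%. Where the partner lies inside the SLC gene (15 members) the median was 0.53, beside 0.38. The 5 members that lie inside their partner had a median of 0.19, below the 2.51 of protein-coding genes in that arrangement, but these are few genes. The amount of overlap moved with the arrangement, with a median of 665 shared bases tail to tail, 245 head to head and 133 for members inside the partner, and its part in these medians was not tested. The 50 members with a protein-coding partner had a median level per kb of 2.49, and the 34 with a non-coding or pseudogene partner had 0.28. Over protein-coding genes these medians were 2.77 and 0.56, so the SLC genes showed a gap of like size.

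**Figure D3:**
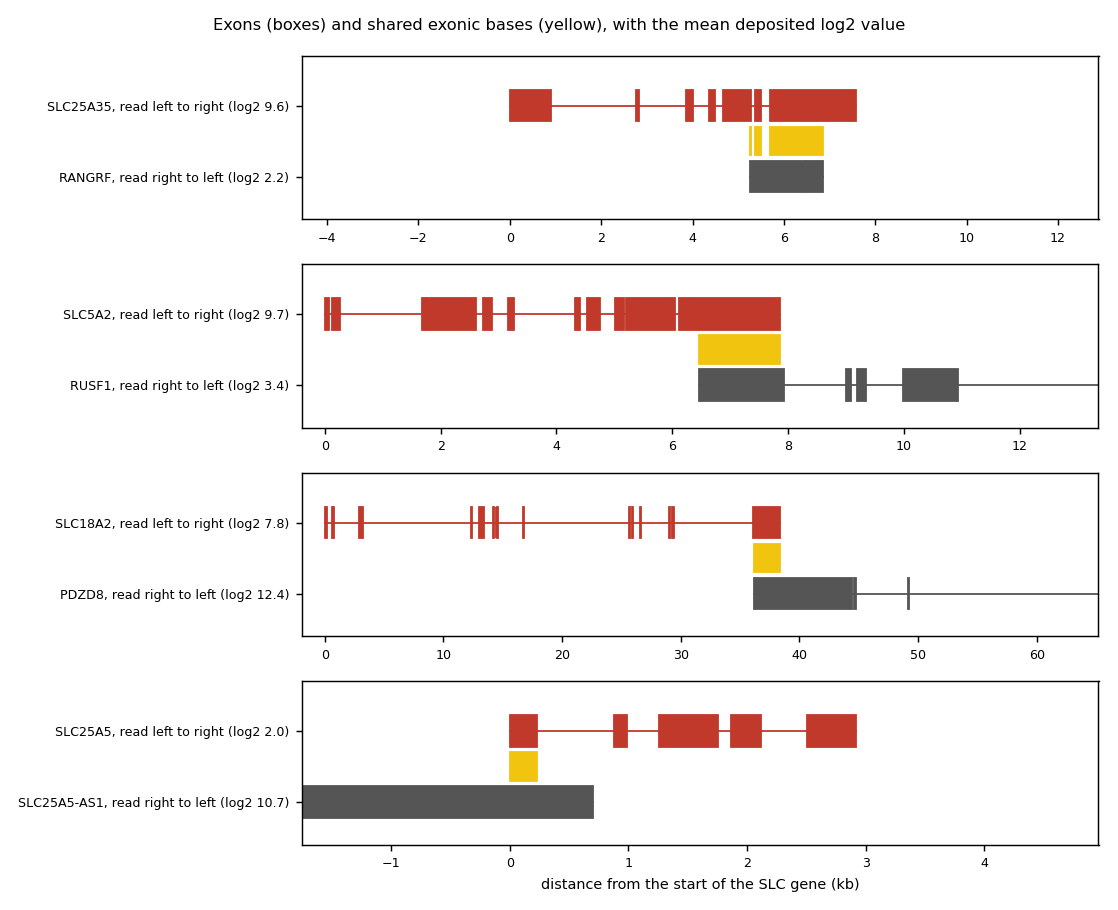
Exons of 4 SLC genes (red) and their opposite-strand partners (grey) with the shared exonic bases (yellow), as distance in kb from the start of the SLC gene, each name followed by its mean deposited log2 value. SLC25A35 and SLC5A2 are far above their partners, while PDZD8 and SLC25A5-AS1 are above SLC18A2 and SLC25A5; partner lines are cut at the frame.

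Levels of the 2 genes of a pair were not alike. Of the 84 partners 58 had a value, and the partner was the higher gene per kb in 35 pairs (60.3%), beside 67.9% over protein-coding genes. In all 58 pairs the gap was larger than the SDs of the pair combined and had the same direction in both libraries, though shrinkage at low values makes these SDs small. Genes read in 1 library alone carry nearly equal values in both, so a shared direction is no replicate agreement for their pairs. Of the 58 pairs, 30 held no such gene. Spearman's rho between member and partner levels per kb was -0.05 over the 58 pairs. With a protein-coding partner the split was even, 18 pairs each way, beside 51.6% with the partner higher over protein-coding genes. With another kind of partner, the partner was higher in 17 of 22 pairs, by a median gap of 4.15 per kb over all 22, beside 90.3% and 5.58 over protein-coding genes.

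Several high members faced a partner that was far lower per kb. SLC25A35 holds the whole of RANGRF, which had log2 values of 2.23 and 2.19 and 1.55 per kb, over 1293 shared bases. SLC5A2 shares 1390 bases with RUSF1 (log2 3.40 and 3.44), and SLC3A1 shares 1923 with PREPL (1.22 and 1.24). SLC19A1 shares 1401 bases with COL18A1 (log2 3.66 and 3.60). In these pairs the SLC gene was higher per kb by 6.03 to 8.51. RUSF1 and COL18A1 were nevertheless detected, while RANGRF and PREPL were not. The values of RANGRF lay on steps of reads in replicate 1 alone, and those of PREPL on steps of reads in replicate 2 alone. SLC7A6 and SLC46A1 shared more bases, 3371 with SLC7A6OS (log2 5.97 and 6.09) and 4421 with SARM1 (8.07 and 7.96), and both partners were detected. The partners of SLC39A9, SLC24A5 and SLC26A1, which are ERH, MYEF2 and IDUA, had no value.

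Other members were low beside a high partner. SLC7A5 (log2 1.67 and 1.68) faced the antisense gene ENSG00000260466 (8.12 and 7.63), a gap of 9.38 per kb. SLC4A2 (3.89 and 3.80) faced ENSG00000244151 (9.56 and 9.79), a gap of 8.46. SLC25A5 (2.01 and 2.04) faced SLC25A5-AS1 (10.51 and 10.94), a gap of 7.67, and its values lay on steps of reads in replicate 2 alone. The 60 bases printed for it thus belong to an undetected gene and, as the reverse complement, to a detected one. SLC28A3, a concentrative nucleoside transporter at 2.35 and 2.31, faced SLC28A3-AS1 (7.54 and 7.34), and its values lay on steps of reads in replicate 1 alone. SLC30A5 (3.74 and 3.66) was detected, with ENSG00000248664 at 6.55 and 6.46. SLC25A18 went the other way, at log2 5.25 and 5.05 beside 0.35 and 0.34 for ENSG00000236754. The values of this partner lay on steps of reads in replicate 1 alone.

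**Figure D4:**
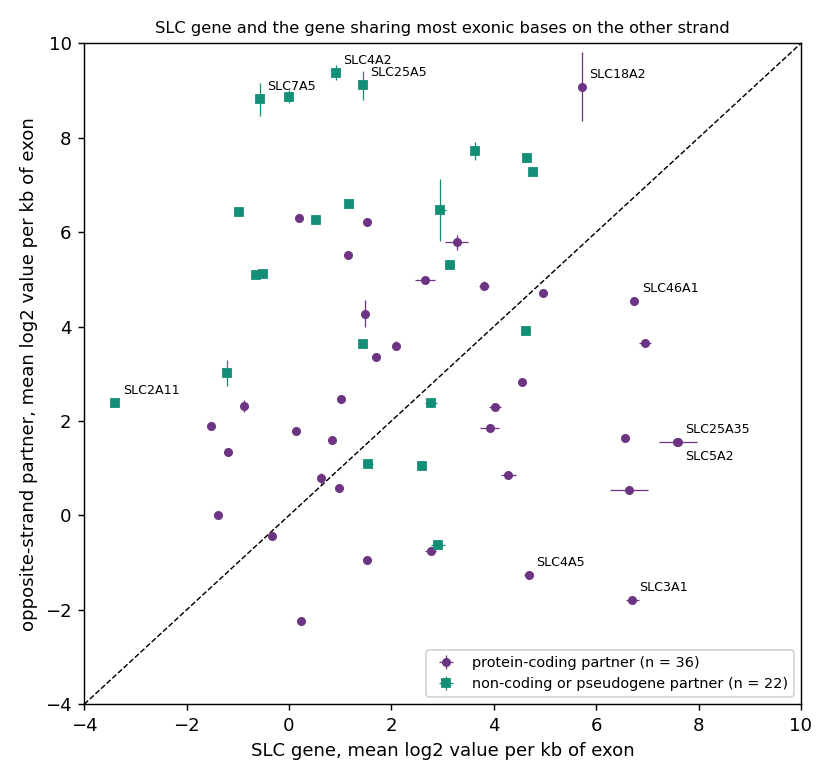
Level per kb of 58 SLC genes (horizontal axis) and of their opposite-strand partners (vertical axis), means of the 2 libraries in log2 per kb of exon with bars of 1 SD (n = 2), circles for protein-coding partners and squares for others. The partner is above the line of equal level in 35 pairs, and no common slope is seen (Spearman's rho -0.05).

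Members without an exonic overlap included high genes too. SLC34A3, SLC10A1 (4.49 ± 0.08 per kb), SLC30A8 and SLC25A6 (3.84 ± 0.10) share neither exon nor gene body with an annotated gene on the other strand. The gene facing SLC34A3, FAM166A, lies 7030 bases away and had a mean log2 value of 9.14. Facing SLC25A6 is IL3RA at 3463 bases (6.69), and facing SLC10A1 is SRSF5 at 3412 bases (1.23). The gene facing SLC30A8, RPS10P16, had no value. Of the 67 members without an exonic overlap, 19 had a facing opposite-strand gene within 5000 bases. Their median level per kb was -0.09, and that of the other 48 was 0.36. Facing genes were looked up for members alone, after the values were seen, so no share over all protein-coding genes stands beside this split.

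The 2 libraries gave like deposited values for the members. These values were shrunken at low levels, so small differences there do not measure replicate agreement. Over the 74 detected members the median difference, replicate 2 minus replicate 1, was -0.04 on the log2 scale, beside -0.02 over all detected genes. Replicate 1 was higher in 47 of them (63.5%), beside 55.6% of detected genes. The spread, the SD of these differences scaled to 1 library, came to 0.107 for members and 0.128 for protein-coding genes. No member differed 2-fold, beside 0.182% of detected genes that were 2-fold higher in replicate 1 and 0.0152% in replicate 2. No member reached 1.5-fold either, beside 1.13% of detected genes. SLC19A1 had the widest fall, by 0.53 (1.44-fold) from replicate 1 to replicate 2, and SLC1A3 fell by 0.42. SLC25A35 was higher in replicate 2 by 0.53 and SLC16A3 by 0.32. The spread of members widened from 0.0113 at mean log2 values up to 2 to 0.199 above 8, and 62 members had both values equal to those of another member.

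**Figure D5:**
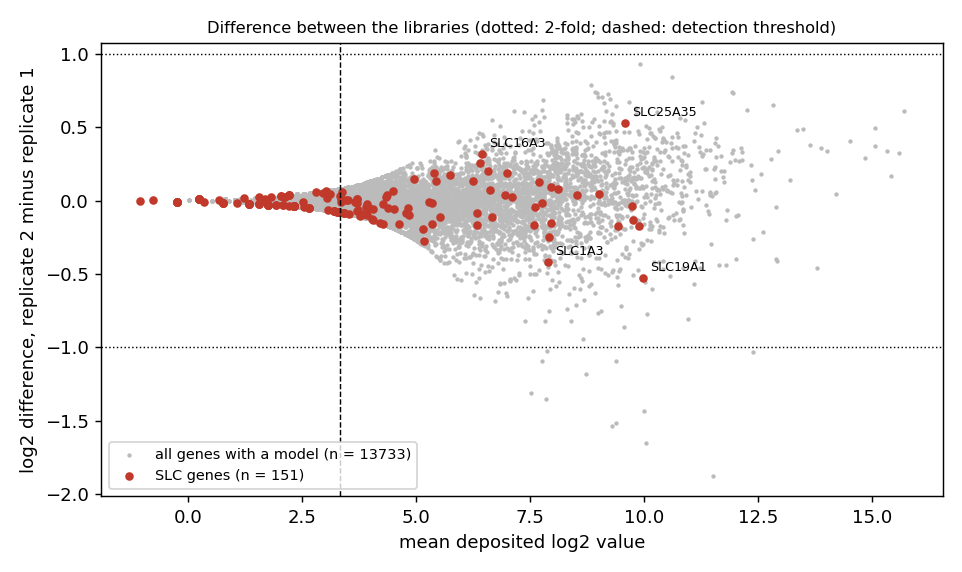
Difference between the libraries (log2 value of replicate 2 minus replicate 1, vertical axis) against the mean deposited log2 value (horizontal axis) for SLC genes (red) over all genes with an annotated model (grey), with dotted lines at 2-fold and a dashed line at the detection threshold. SLC differences stay between -0.53 and 0.53 and narrow towards 0 at low values.

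Other genes named for membrane transport were also represented in part. Other genes with an SLC-type name had a value in 21 of 49, ABC transporters in 20 of 45 and P-type ATPases in 16 of 36. Genes with a V-type ATPase symbol had one in 9 of 24, and potassium channels in 24 of 83. These names took in genes that are not carriers themselves. SLC2A4RG and SLC9A3R2 had no value, and ATP6V1FNB, named as a neighbour of ATP6V1F, was detected at log2 8.54 and 8.09. The shares with a value ran from 28.9% to 44.4%, beside 42.3% of all annotated protein-coding genes. The median levels per kb of these groups were 0.94, -0.41, -0.16, 0.10 and 0.89 in that order, with 8, 8, 6, 4 and 11 genes detected. Of 20 partner proteins and carriers without an SLC symbol, 10 had a value and 3 were detected. CNNM2, a magnesium transport mediator, was the highest of these per kb (log2 10.74 and 10.66). BSG, the chaperone of lactate transporters, had log2 values of -0.23 and -0.24, on steps of reads in replicate 1 alone.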

How the data were processed

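RNA of LAD2 extracellular vesicles was sequenced in 2 libraries of 1 group, using a Qiagen micro kit and an NEB NextUltra library kit, per the labels' protocols. Per the submitters' processing notes, FastQC 0.11.5, STAR 2.6.1a and hg38 were used. How reads were counted, by which annotation and strand setting, and how values were transformed was not given in the sources. Each library's deposited table holds log2 values per gene under a name of counts, normalized and shrunken at low values. The design had allowed for either scale, and no count test could be used.

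A few SLC genes are not reported here. Members, lists and rules were chosen with earlier results of these data known. Symbols, lengths (union of exons) and overlaps came from GENCODE 29 on GRCh38. A partner is the opposite-strand gene with the longest exonic overlap, of at least 1 base. No p-value was computed, since there is 1 group. The worth of a read was taken from value pairs shared by at least 20 genes, below a linear value of 20, with the most common pair taken as 2 reads. A gene counted as read in 1 library alone where its value lay within 0.1 of a step and its difference within 5% of the outermost curve. This check was added after the values were seen, and the functions were tested on made-up data.

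Named were 100 members: the 30 highest per kb, the 2 highest of each family, the mast cell and tissue lists, the 12 pairs with the widest gap each way, the 12 highest without exonic overlap, those with the largest replicate difference and those nearest the threshold. Other members, and genes without a value, were chosen after their values were seen. Alternatives were thresholds, lengths, overlap minimums, pseudocounts and leaving out a library. Work used Python 3.11.15, numpy 2.4.6, pandas 2.3.3 and matplotlib 3.10.9.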

Additional observations from a re-analysis of the deposited data

How the results depend on the processing

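Detected members numbered 47 at a linear threshold of 20 and 93 at 5. The median level per kb, 0.92, became 1.29 with the length of the longest transcript, 2.77 over detected members, 1.02 and 1.53 with 1 and 5 added to the linear value, and 0.88 to 0.95 with either replicate left out. Without values on steps of reads in 1 library, an alternative chosen after seeing the data, it was 2.76. The difference between members with and without an exonic overlap kept its direction under every alternative run. It was 1.62 on deposited values and 1.69 with the longest transcript. With members of shorter overlap counted as without, it was 1.84 and 2.23 at 50 and 200 shared bases. Counting only overlaps with a protein-coding gene, and all other members as without, it was 2.39. It was 1.22 against members without shared gene body, 1.24 over detected members, 1.32 with 1 added, 1.31 without values on steps of reads in 1 library, and 1.34 to 1.37 with either replicate left out. The partner was higher in 19 of 37 pairs (51.4%) where only protein-coding partners counted and in 18 of 30 without values on 1-library steps, against 35 of 58. Members held 0.761% of the linear sum without the 10 highest genes. With the longest transcript, 89 of 100 named members moved by more than their SD, upwards by a median of 0.41, and with 1 added 60 moved. Leaving out either replicate could move none by that much, because the SD of 2 values exceeds the distance of either from their mean. No paired analysis was possible because all samples belong to 1 group. Depth limits the low members, whose SD is shrunken, and detection at 10 is about 11.8 reads in replicate 1 and 8.5 in replicate 2.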
